A study of Mus musculus with 18 samples.

Results

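Cells with the strongest FoxA2 signal were compared with cells of intermediate signal from wild-type mouse embryos at embryonic day 7.5. The comparison took the 3 WT High and the 3 WT Mid libraries, 6 of the 18 libraries of the series, which were chosen by their labels and not by a measured value. It covered the 14711 of 24498 genes that reached a value of 10 or more in 3 or more of the 18 libraries. Both groups came from embryos homozygous for FoxA2-WT-tagRFP, a knock-in allele made by recombinase-mediated cassette exchange in embryonic stem cells. It joins the end of FoxA2 through a flexible linker to the red fluorescent protein tagRFP. High cells were redder than heterozygous cells, whereas Mid cells lay above the autofluorescence of untagged embryos and reached the heterozygous maximum. Neg cells of the same embryos, without red signal, are given for orientation and were not tested here. In 1 section the same gates of ΔHx embryos are used, which carry FoxA2-ΔHx-tagRFP on both alleles, the same fusion without 10 amino acids of a helix. All groups share the tag, a mixed background (C57Bl6/J x CD-1) and superovulated mothers, and the embryos were not sexed. The extra-embryonic portion had been cut off for genotyping, about 10 homozygous embryos were pooled per sort, and 2500 to 5000 cells were collected. Each SMART-Seq2 library was made from RNA equal to that of 1000 cells and read from 1 end for 75 bases.

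FoxA2 is a forkhead transcription factor that can open packed chromatin and is required for the node, the notochord and the foregut. At this stage it is made in several tissues at once. The anterior streak and the node, an organiser at the tip of the embryo whose cilia turn fluid leftwards, give rise to the notochord and to definitive endoderm. The visceral endoderm, an older layer that covers the embryo, takes up maternal nutrients and secretes plasma proteins, and part of it is woven into the gut. The parietal endoderm lines the yolk cavity and secretes a thick basement membrane.

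Each of the 6 libraries had between 12802568 and 16799783 reads in genes, and reads fell in 16252 to 17917 genes. Rn45s, a ribosomal RNA precursor, took 28.6% to 44.0% of the reads in genes, most of all in Mid 1. Values are normalised read counts, replicates are numbered as in the labels, and differences are on the log2(value + 1) scale, High minus Mid, which understates those of low genes. Libraries are called biological replicates in the labels. The p-values rest on 1 spread per gene between replicates, taken over all 18 libraries, Neg and ΔHx ones included. The sorted protein's own gene, Foxa2 (mm10, chr2:148042877-148046969, minus strand), had values of 2483, 1742 and 1556 in the High libraries, against 871, 812 and 621 in the Mid libraries and a mean of 28.2 in Neg. Every High library lay above every Mid library (log2 difference 1.31, SE 0.28, adjusted p = 0.00163). Since the gates were set by the fused protein, this checks the sort and is no finding.

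Of the tested genes 12.1% were higher in High (1774 genes) and 12.4% were lower (1819 genes) at an adjusted p under 0.05. Counts of called list members below are to be read beside these shares. Differences over 2-fold were found in 1119 of the higher and 756 of the lower genes, and over 8-fold in 203 and 166. The libraries of the gates did not overlap in 17.9% of tested genes with High above and in 17.5% with High below, and 1696 of the higher and 1686 of the lower calls were among these. The balance depended on the scaling. With libraries set to equal totals 1871 genes were higher and 982 lower, with equal totals without Rn45s 2163 and 1388, so that the higher share of calls was 65.6% and 60.9%, against 49.4%. The median over all genes moved to 0.11 and 0.074 under these scalings, against -0.014 in the main fit. No gene called in both the main fit and an alternative changed sign between them, and the signs of calls that ended were not compared. In sorted bulk cells, fewer cells of a type and less RNA of a gene per cell cannot be told apart, and this holds for every result below.

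**Figure D1:**
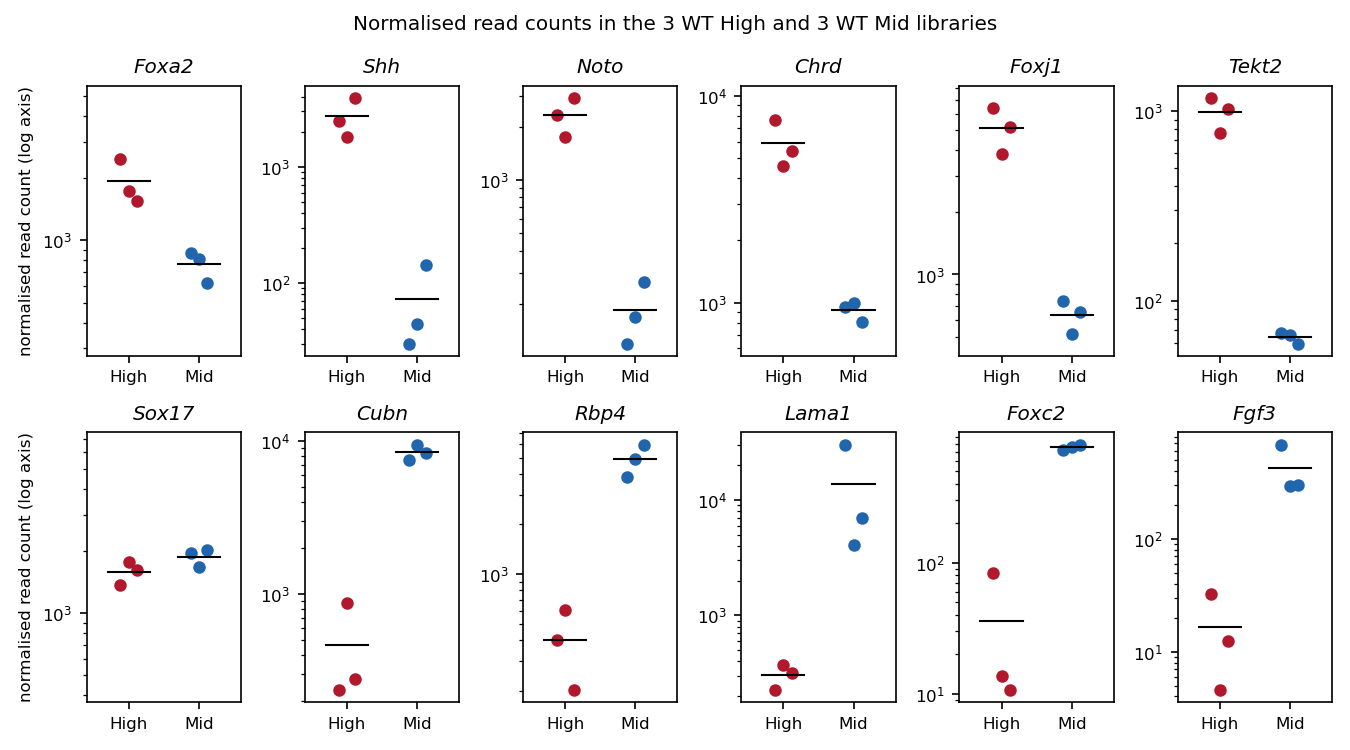
Normalised read counts (log scale) of 12 genes in each WT library of the High and Mid gates. Points are libraries and lines are means of 3. The node and cilia genes Shh, Noto, Chrd, Foxj1 and Tekt2 stood higher in High, Sox17 was alike in High and Mid, and Cubn, Rbp4, Lama1, Foxc2 and Fgf3 stood higher in Mid.

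Genes of the node and notochord were higher in the High cells. Of 16 tested members of the list 14 were higher and 0 were lower, with a median log2 difference of 2.56, against -0.014 over all tested genes. Noto, a homeobox gene of the node (chr6:85423886-85428877, plus strand), had values of 2329, 1761 and 2896 in High, against 119, 169 and 266 in Mid. Shh, the signalling protein that the node and notochord send to the neural plate (chr5:28456815-28467256, minus strand), had 2461, 1809 and 3893 in High, against 30.1, 44.9 and 142 in Mid. Neither gene overlapped between the gates (Noto log2 difference 3.70, SE 0.59, adjusted p = 0.00014; Shh 5.46, SE 0.62, adjusted p = 3.81e-06), and their Neg means were 6.65 and 2.05. Brachyury (T), the T-box factor of streak and notochord, had 15866, 10088 and 11319 in High, against 3958, 2856 and 2517 in Mid and a mean of 2124 in Neg. It was thus present in all gates, and its difference was smaller (2.00, SE 0.25, adjusted p = 1.13e-05).

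The secreted factors of the organiser followed the same order. Chrd, which binds bone morphogenetic proteins, had 7648, 4590 and 5438 in High, against 958, 994 and 807 in Mid (2.65, SE 0.34, adjusted p = 1.3e-05). The second such antagonist, Nog, had 1090, 745 and 821 in High, against 732, 114 and 151 in Mid. Mid 1 stood near the High libraries there. The difference was 1.90 (SE 0.45, adjusted p = 0.00412) with all libraries and 2.73 without Mid 1, and the adjusted p was 0.06 in a model of the compared groups alone. The axon guidance protein Slit2 had 2880, 2649 and 3550 in High, against 485, 439 and 541 in Mid. The transcription factors Foxd4 (1605, 1187 and 1895 in High, against 52.1, 58.3 and 132 in Mid) and Sox9 (4066, 2577 and 3177, against 411, 479 and 496) had the smallest adjusted p of the list, 3.66e-09 and 1.07e-09. The remaining called members ranged in log2 difference down to 1.30 (Cfc1). Gsc, a homeobox gene of the organiser, did not pass the test, with 374, 541 and 519 in High, against 333, 391 and 142 in Mid (0.83, SE 0.52, adjusted p = 0.271). Tbx2 was near 0 in all 6 libraries. As a share of reads in genes without Rn45s, the list took 0.450%, 0.316% and 0.388% in High, against 0.0828%, 0.0677% and 0.0631% in Mid and 0.0243% to 0.0427% in Neg.

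**Figure D2:**
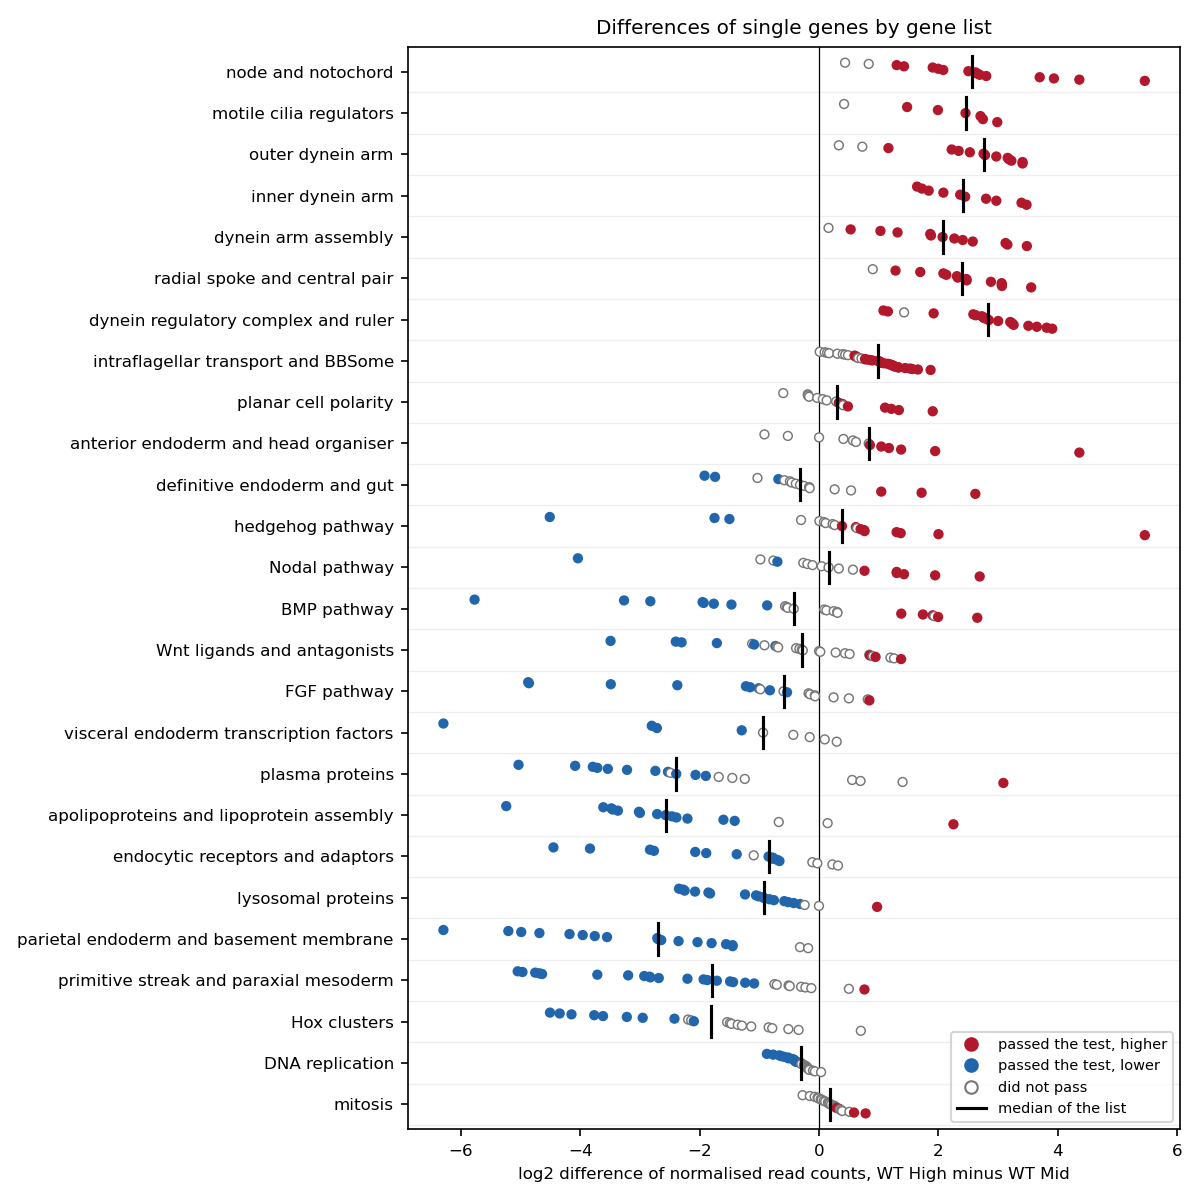
Log2 difference, High minus Mid, of each tested gene in 26 gene lists; red points were called higher, blue points lower, open points were not called, and black bars are list medians. The node and axoneme lists lay almost wholly to the right of 0, the plasma protein, lipoprotein and basement membrane lists to the left, and the signalling and definitive endoderm lists on both sides.

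Genes for motile cilia were higher in High. A motile cilium is built on a core of microtubules, the axoneme, that is bent by outer and inner dynein arms. Radial spokes and a central apparatus time the strokes, and the dynein regulatory complex and ruler proteins set the spacing. The master regulator Foxj1 (chr11:116330704-116335399, minus strand) had values of 6367, 3824 and 5177 in High, against 744, 518 and 655 in Mid and a mean of 33.8 in Neg (2.99, SE 0.47, adjusted p = 0.00011). Of the X-box binding RFX factors, Rfx2 had 315, 293 and 293 in High, against 45.2, 29.6 and 68.9 in Mid, and Rfx3 had 2935, 1944 and 2137, against 917, 903 and 683. Both were called (2.70 and 1.48), while Rfx1 was not (0.42, SE 0.18, adjusted p = 0.105).

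Across 5 lists of axoneme parts 66 of 71 tested members were higher and 0 were lower, with a median of 2.58. By part these were 12 of 14 outer arm genes (median 2.77), 10 of 10 inner arm genes (2.41) and 12 of 13 genes for assembling the arms in the cytoplasm (2.07). Of the radial spoke and central pair genes 13 of 14 were higher (2.40), and of the regulatory complex and ruler genes 19 of 20 (2.83). The outer arm heavy chain Dnah5 had 1109, 900 and 836 in High, against 93.2, 69.7 and 104 in Mid (3.41, SE 0.63, adjusted p = 0.000499). The inner arm heavy chain Dnah10 had 223, 218 and 208 in High, against 19.2, 19.1 and 20.9 in Mid (3.39, SE 0.61, adjusted p = 0.000391). In both genes every High library lay above every Mid library. The assembly factor Zmynd10 had 897, 588 and 813 in High, against 76.7, 86.9 and 88.0 in Mid. The spoke head protein Rsph4a had 659, 563 and 1129, against 53.4, 50.6 and 91.5, and the tektin Tekt2, a filament of the microtubule wall, had 1166, 769 and 1030, against 67.1, 65.9 and 59.3. Tekt2 had the smallest adjusted p among the named axoneme genes (3.91, SE 0.31, adjusted p = 6.88e-08). Reads of Dnah7a, Dnah7b and Dnah7c, and of Rsph3b and its copy, may be split among near-identical genes and are uncertain.

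The transport machinery that builds all cilia, sensory ones included, differed less. Of 39 intraflagellar transport and BBSome genes 29 were higher and 0 lower, with a median of 0.98. The transport protein Ift57 had 1309, 908 and 1242 in High, against 351, 388 and 419 in Mid and a mean of 312 in Neg (1.56, SE 0.15, adjusted p = 6.3e-07). Ift20 did not pass (712, 593 and 628 in High, against 734, 548 and 541 in Mid; adjusted p = 0.714). The shares of reads were 0.243% to 0.296% in High, 0.124% to 0.145% in Mid and 0.120% to 0.126% in Neg, so that Mid and Neg lay side by side. For the regulatory complex and ruler list they were 0.164%, 0.116% and 0.160% in High, against 0.0247%, 0.0256% and 0.0288% in Mid and 0.0158% to 0.0174% in Neg. The programme that multiplies centrioles in cells with many cilia had 2 of 6 tested members higher, Ccno (1041, 741 and 780 in High, against 233, 134 and 202 in Mid) and Ccdc78, and 4 with DESeq2.

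The promoters of these genes are shown because RFX factors are known to bind the X-box of ciliary genes. Rfx2 and Rfx3 were called higher here and Rfx1 was not, and whether they act on these genes was not tested. Sequences are from RefSeq (GRCm38.p6, the same build as mm10), 250 bases before to 50 after a gene's start, 5′ to 3′ on the gene's strand, and capitals mark the motif on either strand. Tekt2 (chr4:126325597-126325896, minus strand) and Dnah10 (chr5:124724835-124725134, plus strand) each hold 2 copies of GTTGCC, one arm of the X-box.
Tekt2: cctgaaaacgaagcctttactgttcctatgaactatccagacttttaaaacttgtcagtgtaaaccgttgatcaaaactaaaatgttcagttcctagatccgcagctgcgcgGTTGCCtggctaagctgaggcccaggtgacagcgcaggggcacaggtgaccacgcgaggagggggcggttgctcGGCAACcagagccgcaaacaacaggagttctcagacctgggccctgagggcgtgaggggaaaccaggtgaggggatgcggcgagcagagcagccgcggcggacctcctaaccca
Dnah10: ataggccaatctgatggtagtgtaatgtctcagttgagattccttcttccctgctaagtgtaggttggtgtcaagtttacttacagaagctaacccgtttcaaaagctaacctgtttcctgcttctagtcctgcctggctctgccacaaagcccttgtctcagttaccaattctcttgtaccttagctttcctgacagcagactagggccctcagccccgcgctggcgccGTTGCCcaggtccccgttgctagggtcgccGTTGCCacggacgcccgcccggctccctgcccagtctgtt
Ccdc151 (chr9:22002585-22002884, minus strand), which docks outer dynein arms, and Ttc26 (chr6:38381274-38381573, plus strand), a transport protein, each hold 1 full X-box, GTTNCC and GGNAAC with 2 bases between them and N for any base.
Ccdc151: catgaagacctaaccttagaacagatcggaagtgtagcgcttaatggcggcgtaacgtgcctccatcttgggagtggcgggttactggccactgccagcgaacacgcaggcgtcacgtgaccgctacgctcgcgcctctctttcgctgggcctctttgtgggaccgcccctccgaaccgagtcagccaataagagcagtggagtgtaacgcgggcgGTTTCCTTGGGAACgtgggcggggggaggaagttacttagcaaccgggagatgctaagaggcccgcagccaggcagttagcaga
Ttc26: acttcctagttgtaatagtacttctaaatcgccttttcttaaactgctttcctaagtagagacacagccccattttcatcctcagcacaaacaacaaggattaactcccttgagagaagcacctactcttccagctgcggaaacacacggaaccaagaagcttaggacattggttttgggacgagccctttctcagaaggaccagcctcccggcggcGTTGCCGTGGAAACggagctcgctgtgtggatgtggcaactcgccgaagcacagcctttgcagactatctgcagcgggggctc
In these windows the arms begin 138 and 64 bases before the start used for Tekt2, and 20 bases before and 10 bases after that of Dnah10. Tekt2 has another window, chr4:126325639-126325938, with the same arms from bases 155 and 229, nearer to its start. Both windows count among the 61 axoneme promoters below. The full motifs begin 34 and 33 bases before the starts of Ccdc151 and Ttc26.

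The arm GTTGCC, searched on both strands, was in 41.0% of 61 axoneme promoters and in 37.1% of 35 intraflagellar transport and BBSome promoters, against 12.5% of all 32851 promoters. It was in 19.2% of 1801 promoters of genes called higher, in 11.0% of 1805 promoters of genes called lower and in 12.3% of 10610 promoters of genes not called. Without the cilia lists the share among the higher genes was 17.9% of 1716. The full X-box, which can contain the arm, was rare, in 0.451% of all promoters. It was in 1.28% of promoters of higher genes, 0.111% of those of lower genes and 0.509% of those of genes not called, and among the axoneme promoters only Ccdc151 had it. The promoters differed in base composition, with a mean GC content of 54.7% for the axoneme lists, 59.2% for the transport list and 53.8% for all promoters. A match is a run of letters and no evidence of binding. The table held a promoter for 11157 of the 14711 tested genes and for 55 of the 74 listed axoneme genes.

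Single hedgehog pathway genes were called in both directions. Of the pathway 9 of 19 tested members were higher and 3 lower (median 0.38). The lower count is near the 12.4% of all tested genes called lower and is no result about the list. Genes that receive or pass on the signal had smaller differences than Shh. Gli1, a transcription factor switched on by hedgehog signals, had 294, 268 and 189 in High, against 76.7, 110 and 116 in Mid (1.30, SE 0.23, adjusted p = 0.000327). The receptor Ptch1, also induced by the pathway, had 785, 794 and 854, against 397, 500 and 546 (0.76, SE 0.12, adjusted p = 0.000109). Cdon, a co-receptor, was higher (1.37) and Gas1, another co-receptor, was lower, with 278, 194 and 185 in High, against 948, 679 and 597 in Mid (-1.75, SE 0.23, adjusted p = 1.57e-05). Gas1 was higher still in Neg, with a mean of 1552. Sufu, the inhibitor of Gli factors, had 674, 749 and 768 in High, against 593, 679 and 811 in Mid (0.08, SE 0.12, adjusted p = 0.681).

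Single genes of the left-right axis were called in both directions. The node cilia's flow is read by crown cells, which make Nodal and its antagonist Dand5, and the left side later makes Lefty2. Nodal had 1499, 1312 and 1318 in High, against 595, 480 and 468 in Mid (1.42, SE 0.20, adjusted p = 4.35e-05). Dand5 had 683, 1030 and 1132, against 97.3, 121 and 246 (2.69, SE 0.32, adjusted p = 6.11e-06). Bicc1, an RNA-binding protein that acts on Dand5 RNA, was higher as well (2.08). Lefty2 had 439, 110 and 36.3 in High, against 3813, 1445 and 1468 in Mid (-4.04, SE 0.72, adjusted p = 0.000369). Within both gates library 1 was the highest for Lefty2. Of 14 tested flow sensing and left-right genes 5 were higher and 2 lower, and of 17 Nodal pathway genes 6 and 2, the lists sharing members. Over all tested genes 12.1% were higher and 12.4% lower, so the lower counts are no result about these lists. The channel Pkd2 did not pass (398, 279 and 161 in High, against 214, 271 and 121 in Mid; adjusted p = 0.29). Planar polarity genes, which set the tilt of cilia, had 7 of 16 members higher and 0 lower, 4 without High 3 or without Mid 1 and 3 in a model of the compared groups alone. Prickle2 had 620, 628 and 718 in High, against 136, 184 and 210 in Mid (1.90, SE 0.19, adjusted p = 7.35e-07).

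Definitive endoderm genes did not separate the gates as a group. Of 17 tested members 3 were higher and 3 lower (6 lower without Mid 1), with a median of -0.32. Sox17, the transcription factor that marks this layer, had 1376, 1760 and 1610 in High, against 1947, 1680 and 2013 in Mid and a mean of 130 in Neg (-0.25, SE 0.18, adjusted p = 0.364). Trh had 5465, 4955 and 3510 in High, against 3910, 5532 and 6203 in Mid and a mean of 488 in Neg (-0.17, SE 0.16, adjusted p = 0.515). The gates overlapped in both genes. The share of reads was 0.211%, 0.252% and 0.214% in High, against 0.222%, 0.287% and 0.260% in Mid and 0.0204% to 0.0249% in Neg. All 17 members had a higher mean in Mid than in Neg. Among those that differed, the keratin Krt19 (chr11:100140810-100148665, minus strand) had 3797, 3156 and 5451 in High, against 460, 929 and 656 in Mid (2.62, SE 0.24, adjusted p = 3.78e-07). The trypsin inhibitor Spink1 had 1452, 2983 and 1298, against 7001, 7800 and 5555 (-1.92, SE 0.38, adjusted p = 0.00101), and the chloride channel protein Clic6 had 374, 766 and 387, against 1711, 1751 and 1390 (-1.74). High 2 was the highest of its gate for both.

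Genes of anterior endoderm and the head organiser leaned to High, with 6 of 13 tested members higher and 0 lower (median 0.83). Cer1, a secreted antagonist of Nodal, had 11348, 10040 and 12910 in High, against 3535, 2626 and 2772 in Mid and a mean of 286 in Neg (1.95, SE 0.22, adjusted p = 3.47e-06). The homeobox genes Lhx1 and Hhex were higher by 1.17 and 1.04. Dkk1, an antagonist of Wnt, had 1484, 1205 and 1193 in High, against 1495, 1314 and 1084 in Mid, a difference of 0.00 (SE 0.21, adjusted p = 0.999).

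The visceral endoderm's transport and secretion genes were lower in High. Across 4 lists, which also take in this tissue's transcription factors, 41 of 62 tested members were lower and 2 higher, with a median of -1.98. Cubn, the receptor of the uptake complex that visceral endoderm shares with kidney and gut (chr2:13276338-13491813, minus strand), had 236, 881 and 278 in High, against 7595, 9489 and 8437 in Mid and a mean of 250 in Neg (-4.45, SE 0.41, adjusted p = 3.78e-07). Its partners followed, Amn with 427, 775 and 272, against 3069, 3581 and 2976, and Lrp2 with 145, 110 and 55.0, against 1518, 1201 and 1451. High 2 was the highest of the High libraries for Cubn and Amn. In all, 12 of 17 endocytic genes were lower and 0 higher (median -0.85).

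Among plasma proteins 11 of 19 were lower and 1 higher (median -2.39), and among apolipoproteins and their assembly factors 14 of 17 were lower and 1 higher (median -2.57). The retinol carrier Rbp4 had 403, 605 and 201 in High, against 3815, 4900 and 5975 in Mid (-3.71, SE 0.38, adjusted p = 1.18e-06). Ttr, which carries thyroid hormone, had 444, 1178 and 408, against 4894, 6199 and 5659 (-3.22), and Apob, the backbone of lipoprotein particles, had 891, 1628 and 844, against 5573, 7148 and 6425 (-2.57). Apom, Apoa4 and Soat2, which esterifies cholesterol, fell as well, by 3.37, 3.48 and 2.71. The adhesive plasma protein Vtn went the other way, with 1095, 1052 and 1690 in High, against 82.2, 159 and 238 in Mid and a mean of 6.16 in Neg (3.09, SE 0.79, adjusted p = 0.00672). So did the phospholipid transfer protein Pltp (2.25). Among the 8 largest falls was Slc2a2, a glucose transporter of liver and gut. It had 2.4, 5.46 and 0 in High, against 136, 422 and 546 in Mid (-6.82, SE 0.84, adjusted p = 9.07e-06), and Mid 1 was the lowest Mid library.

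Of 9 transcription factors of this tissue 4 were lower and 0 higher. Sox7, which was among the lower ones, is also in the basement membrane and parietal endoderm list below. The factor list took 0.0248%, 0.0286% and 0.0225% of reads in High, against 0.0808%, 0.0427% and 0.0447% in Mid, where Mid 1 was the highest. Hnf4a, a nuclear receptor of visceral endoderm and liver, had 94.7, 148 and 37.2 in High, against 586, 584 and 451 in Mid (-2.72, SE 0.67, adjusted p = 0.00528). FoxA2's relative Foxa3 overlapped between the gates, with 222, 314 and 276 in High, against 226, 328 and 359 in Mid (-0.16, SE 0.31, adjusted p = 0.768). Lysosomal proteins, which digest what this layer takes up, had 17 of 20 members lower and 1 higher (median -0.93). The protease Ctsb had 1238, 1208 and 1183 in High, against 4348, 3873 and 4955 in Mid and a mean of 1015 in Neg (-1.85, SE 0.09, adjusted p = 2.95e-10). Lipa, the lysosomal lipase, was the higher member (0.97).

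**Figure D3:**
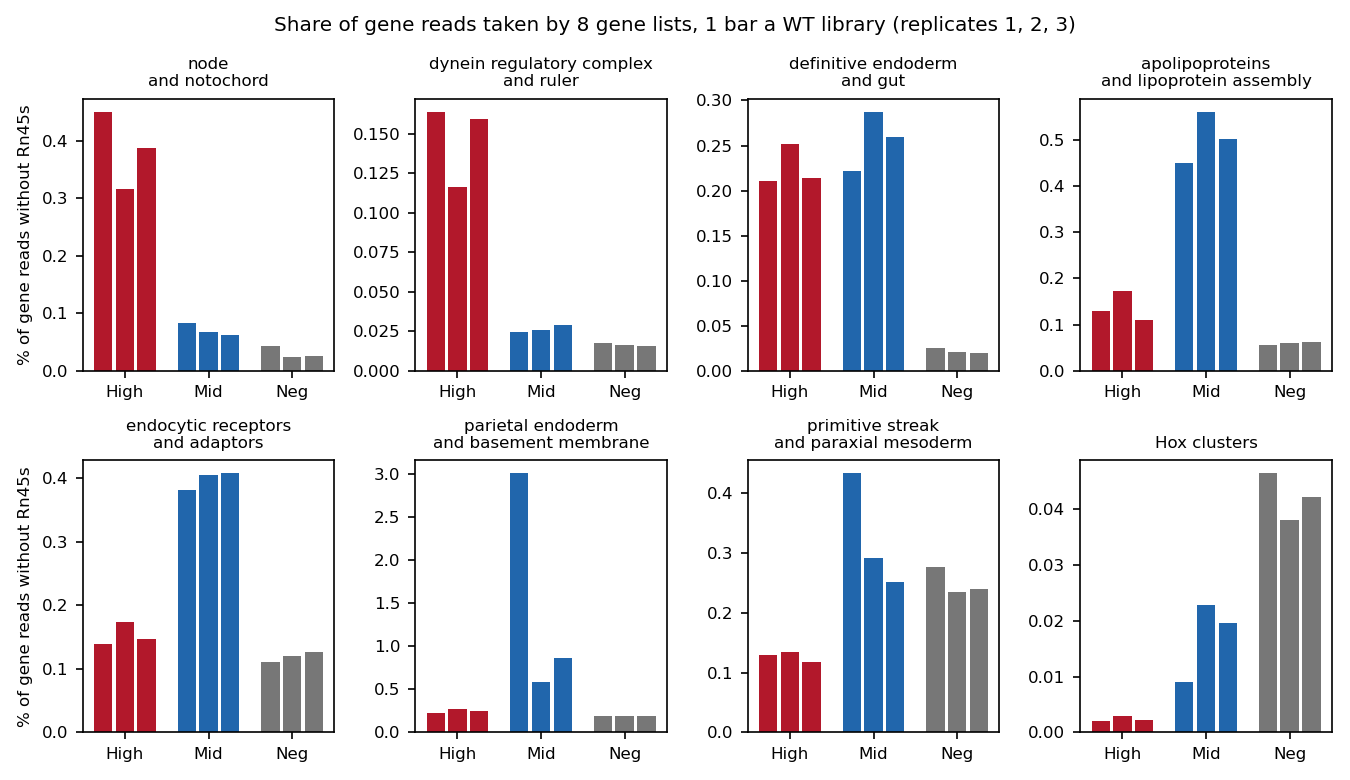
Share of reads in genes without Rn45s (percent) taken by the summed genes of 8 lists in each WT library, in the order High, Mid, Neg; each bar is 1 library. The node and ruler lists were largest in High, the apolipoprotein and endocytic lists in Mid, the definitive endoderm list was alike in High and Mid, and the basement membrane list was set apart by Mid 1 at 3.00%.

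The forkhead letters TGTTTAC, searched on both strands, were in 6 of 58 promoters of the plasma protein, lipoprotein and endocytic lists, 10.3%, against 3.65% of all promoters. The genes were Apoa2, Apoe and Rbp4, called lower, Fcgrt and Fetub, not called, and Apoh, not tested. Among genes called higher 3.28% of promoters held these letters, against 2.16% among genes called lower and 265 of 10610 promoters of genes not called. Apoa2 (chr1:171224804-171225103, plus strand), an apolipoprotein with values of 8.39, 2.73 and 1.77 in High, against 35.6, 60.2 and 78.5 in Mid, is shown with the match in capitals, 77 bases before its start.
Apoa2: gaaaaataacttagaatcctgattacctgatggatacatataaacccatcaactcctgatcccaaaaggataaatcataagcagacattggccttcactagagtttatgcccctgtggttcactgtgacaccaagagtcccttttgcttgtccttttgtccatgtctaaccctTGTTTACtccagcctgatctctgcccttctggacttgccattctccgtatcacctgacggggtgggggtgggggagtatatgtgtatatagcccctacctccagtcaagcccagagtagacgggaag
The HNF4 letters CAAAGTCCA were in 1 of the 58 promoters, that of Pdzk1, and in 0.475% of all.

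Basement membrane and parietal endoderm genes were lower in High, and the Mid libraries were unequal. Of 19 tested members 17 were lower and 0 higher (median -2.70). Lama1, a chain of laminin (chr17:67697259-67822647, plus strand), had 225, 371 and 317 in High, against 30072, 4065 and 7011 in Mid and a mean of 609 in Neg (-4.99, SE 0.44, adjusted p = 2.86e-07). Nid1, which links laminin to collagen IV (chr13:13437551-13512269, plus strand), had 245, 426 and 317, against 16229, 2245 and 3437 (-3.96, SE 0.45, adjusted p = 4.06e-06). Sox7, a transcription factor of this lineage (chr14:63943673-63950732, plus strand), had 3.60, 17.3 and 1.77, against 1478, 194 and 388 (-6.29, SE 0.70, adjusted p = 2.8e-06). All Mid libraries stood above all High libraries in these genes, and Mid 1 stood far above its partners. Mid 1 was the highest Mid library in 18 of the 19 genes. The list took 0.223%, 0.270% and 0.251% of reads in High, against 3.00%, 0.590% and 0.861% in Mid and 0.187% to 0.196% in Neg. Without Mid 1, 18 members were lower, with a median of -2.01, and Lama1, Nid1 and Sox7 differed by -4.16, -3.11 and -5.48. Fst, an activin antagonist outside this list, had a like profile, with 1496, 757 and 749 in High, against 19593, 3543 and 4364 in Mid (-2.83). The labels say that the extra-embryonic part was removed; the source of these transcripts was not tested.

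Streak and paraxial mesoderm genes were lower in High, with 19 of 28 tested members lower and 1 higher (median -1.79). Foxc2, a forkhead gene of paraxial mesoderm (chr8:121116171-121118895, plus strand), had 82.7, 13.7 and 10.6 in High, against 719, 765 and 792 in Mid and a mean of 691 in Neg (-4.97, SE 0.49, adjusted p = 7.76e-07). Tcf15, a basic helix-loop-helix factor of somite precursors, had 0, 5.46 and 4.43, against 104, 127 and 93.3 (-5.05). Mesp1, which marks the earliest mesoderm, had 59.9, 10.0 and 42.5, against 1200, 671 and 559 (-4.64), and Snai1, which drives cells out of the epithelium, had 122, 87.4 and 84.2, against 1640, 579 and 751 (-3.20). For Foxc2 and Mesp1 the highest High library was High 1, which was still below every Mid library. The exception was Sp5, a Wnt-responsive factor, with 2411, 2141 and 2376 in High, against 1245, 1499 and 1348 in Mid (0.76, SE 0.14, adjusted p = 0.000354). The list took 0.117% to 0.134% of reads in High, against 0.432%, 0.292% and 0.251% in Mid and 0.235% to 0.276% in Neg. Of the 28 genes 17 had a higher mean in Mid than in Neg.

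Lateral, cardiac and extra-embryonic mesoderm genes were mixed. Of 21 tested members 7 were lower and 4 higher, and the median of -0.22 was 0.25 without Mid 2 and 0.37 without Mid 3. Hand1, of cardiac and extra-embryonic mesoderm, had 9.59, 5.46 and 21.3 in High, against 4.11, 14.3 and 29.6 in Mid and 1288 to 1622 in Neg. Postn, a matrix protein, had 185, 78.3 and 158 in High, against 12.3, 0.955 and 14.8 in Mid (4.16, SE 0.72, adjusted p = 0.000304). Hox genes, which mark posterior tissue, had 9 of 22 tested members lower and 0 higher (median -1.82), and 15 lower with array weights. Hoxb1 had 115, 128 and 97.5 in High, against 555, 1253 and 984 in Mid and a mean of 1535 in Neg (-2.95, SE 0.24, adjusted p = 1.27e-07). Their share of reads was 0.0021%, 0.0030% and 0.0022% in High, 0.0091%, 0.0228% and 0.0197% in Mid and 0.0381% to 0.0464% in Neg. Mid 1 was the lowest Mid library.

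FGF pathway genes leaned to Mid. Of 19 tested members 9 were lower, 1 was higher and 9 were not called (median -0.59), beside 12.4% lower and 12.1% higher over all tested genes. The ligands Fgf3 (32.4, 4.55 and 12.4 in High, against 681, 293 and 302 in Mid), Fgf4 (42.0, 25.5 and 4.43, against 221, 202 and 194) and Fgf15 (50.4, 4.55 and 4.43, against 348, 338 and 327) did not overlap between the gates, with differences of -4.86, -3.49 and -4.87. Fgfr2 was higher (0.84), and Fgfr4, a receptor of liver and visceral endoderm, was lower, with 56.3, 138 and 57.6, against 529, 337 and 363 (-2.37). Its Neg mean was 15.4. The feedback gene Spry2, induced by FGF, was lower by a smaller amount (-1.01, SE 0.16, adjusted p = 0.000105).

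In the Wnt list 6 of 26 members were lower and 3 higher (5 higher without Mid 3), beside 12.4% and 12.1% of all tested genes. Wnt8a had 28.8, 16.4 and 26.6 in High, against 162, 309 and 403 in Mid and a mean of 667 in Neg (-3.49, SE 0.27, adjusted p = 6.88e-08), and Wnt5a had 117, 115 and 70.9, against 492, 512 and 571 (-2.40). The antagonists Sfrp1 and Shisa2 were higher (0.95 and 1.38). In the BMP list 8 of 23 were lower and 5 higher. The ligand Bmp7 had 1754, 1647 and 2198 in High, against 475, 530 and 674 in Mid (1.74, SE 0.18, adjusted p = 1.63e-06), beside the antagonist Chrd described above. Id2 and Msx2, which answer to BMP signals, were lower (-1.93 and -1.95). In the Notch list 4 of 21 were lower and 3 higher, 7 higher with array weights, which beside 12.4% and 12.1% of all tested genes is no result about the list. The ligand Dll1 had 862, 590 and 637, against 2343, 2535 and 2684 (-1.87, SE 0.15, adjusted p = 7.28e-08), and Hes3 had 0 reads in every High library, at least 7.15-fold lower than in Mid with a floor of 3 reads in each library. In the retinoic acid list 5 of 14 were lower and 3 higher. Aldh1a2, which makes retinoic acid, had 647, 593 and 409 in High, against 1125, 3945 and 3477 in Mid (-2.20, SE 0.33, adjusted p = 7.15e-05), and Dhrs3, which limits it, had 334, 326 and 407, against 67.1, 192 and 112 (1.64).

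Among lists of further tissues, epiblast and trophoblast genes leaned to Mid. Over all tested genes 12.1% were higher and 12.4% lower. The counts of 2 higher blood and endothelial genes and 2 lower neural genes are near these shares and are no result about the lists. Of 20 blood and endothelial genes 5 were lower and 2 higher, and 1 was higher without any 1 High library, without Mid 1 or without Mid 3. The embryonic globin Hbb-bh1 was at 0 in 2 of 3 High libraries and in all Mid libraries, against 111 to 951 in Neg, and the list took 0.0079% to 0.0101% of reads in High, 0.0080% to 0.0096% in Mid and 0.0273% to 0.0477% in Neg. Of 12 extra-embryonic ectoderm and trophoblast genes 5 were lower and 0 higher, among them Peg10 (505, 555 and 312 in High, against 897, 1637 and 1324 in Mid). Prl3d1, a hormone of trophoblast giant cells, was at 0 in all 6 libraries, and the list took 0.0058% to 0.0089% in High, 0.0157% to 0.0220% in Mid and 0.0318% to 0.0392% in Neg. Of 17 epiblast genes 7 were lower and 0 higher, and Sox2, which epiblast and neural plate share, had 3.60, 12.7 and 5.32, against 68.5, 71.6 and 28.8 (-2.85). Of 14 neural genes 5 were higher and 2 lower (median 0.48), and the list took 0.0641% to 0.0733% of reads in High, 0.0512% to 0.0602% in Mid and 0.0559% to 0.0681% in Neg. These were 3 higher without High 1 or without Mid 2, and 1 lower without High 3 or without Mid 3. The forebrain factor Six3 had 300, 177 and 112 in High, against 15.1, 13.4 and 5.23 in Mid (4.01, SE 0.49, adjusted p = 7.05e-06). Lhx2 and Sox3 were lower (-2.02 and -1.89, limma, adjusted p = 0.0178 and 0.0116). The call of Pax6 as higher ended with a pseudocount of 5 (0.212). That of Rax ended without High 1, High 3 or Mid 2 (0.0536, 0.0792 and 0.0986). The part of such cells in the results was not tested.

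Keratins and several junction genes were higher in High. Of 23 tested members of the keratin and junction list 11 were higher, 3 lower and 9 not called, and 7 were lower with array weights. The lower ones were the repressors Snai1, Snai2 and Zeb1. The call of Snai2 (-2.02, limma, adjusted p = 0.0319) ended without High 1, High 3 or Mid 3 (0.0861, 0.0949 and 0.176), in the compared groups alone (0.121), with a pseudocount of 5, without a filter and with equal totals (0.0536 to 0.0708). The median of 0.19 was -0.10 without Mid 1. Krt8 had 24831, 22339 and 29196 in High, against 7524, 10034 and 10763 in Mid and a mean of 2525 in Neg (1.44, SE 0.12, adjusted p = 1.39e-07), and its partner Krt18 had 17669, 17949 and 17457, against 6416, 9618 and 9303 (1.09). Cdh1, the epithelial cadherin, had 7970, 7720 and 7426, against 3774, 5287 and 5467 (0.69, SE 0.11, adjusted p = 0.000169). Epcam, a surface protein of epithelia, overlapped, with 4078, 4663 and 4616 in High, against 3314, 5039 and 4511 in Mid (0.07, SE 0.12, adjusted p = 0.718).

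Genes of DNA replication leaned to Mid. Of 26 tested members 14 were lower and 0 higher (median -0.31), but 4 with equal totals and 9 in a model of the compared groups alone. The cyclin Ccne1, which starts S phase, had 1220, 1402 and 1282 in High, against 1997, 2492 and 2179 in Mid and a mean of 3440 in Neg (-0.77, SE 0.09, adjusted p = 6.98e-06). Ccne2 had 192, 269 and 279, against 397, 458 and 488 (-0.87). The clamp Pcna, which holds the polymerase on DNA, had 2102, 2102 and 2105, against 2719, 2901 and 2975 and a mean of 4121 in Neg (-0.45, adjusted p = 0.000357, and 0.112 with equal totals). The share of reads was 0.486% to 0.583% in High, 0.561% to 0.681% in Mid and 0.872% to 0.893% in Neg, with High and Mid overlapping.

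The largest changes included genes outside the lists. The serine protease Htra3 had 135, 109 and 253 in High, against 0, 1.91 and 3.49 in Mid (6.05, SE 0.80, adjusted p = 1.82e-05), and Megf10, an engulfment receptor, had 91.1, 211 and 226, against 4.11, 2.87 and 6.97 (4.93). The adhesion protein Kirrel3 had 245, 147 and 466, against 2.74, 13.4 and 11.3, and the homeobox gene Lmx1a had 141, 230 and 303, against 13.7, 4.78 and 5.23. Ccdc153 and Myh13 each had 146 reads in High and 1 in Mid, a ratio of 139 (exact 95% interval 24.6 to 5546, counting error only). On the other side the water channel Aqp8 had 0, 1.82 and 0 in High, against 1182, 228 and 469 in Mid, from 2 and 1640 reads (ratio Mid to High 858, 237 to 7094). The noradrenaline transporter Slc6a2 had 3 reads in High and 709 in Mid (ratio 247, 84.3 to 1203), and Wfdc1, a protease inhibitor domain protein, had 2 and 341 (178, 49.0 to 1480). Ripply2, a repressor of somite borders, had 8.39, 0 and 0, against 316, 231 and 193 (-6.85, SE 0.74, adjusted p = 2.25e-06). Aqp8, Slc6a2 and Wfdc1 had their highest Mid value in Mid 1, as did 18 of the 19 basement membrane genes.

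The spread between replicates was wider in Mid for a limited set of genes. Among genes averaging at least 100, the SD of log2 values was over 1 for 24 of 9764 genes in High and for 107 of 9523 in Mid, while the median SD was 0.186 and 0.205. Mid 1 was the highest library in 78 of these 107 genes, Mid 3 in 20 and Mid 2 in 9. The 107 included 13 of the 19 basement membrane and parietal endoderm genes. Among the widest were Rpl39l, Fabp3 (1392, 109 and 216 in Mid), Scube2, Hs3st1, Smoc2, P4ha2 and Srgn (6577, 854 and 1150). Mid 1 was the highest library for each of these genes but Smoc2, which was lowest there (21.9, 206 and 173). Without Mid 1 the calls of Smoc2 (adjusted p = 0.123) and Rpl39l (0.119) ended, and the difference of Hs3st1 moved to -1.22, against -2.20 with all libraries. These calls come from 1 spread per gene shared by all groups of the series, which for these genes is narrower than that within Mid.

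**Figure D4:**
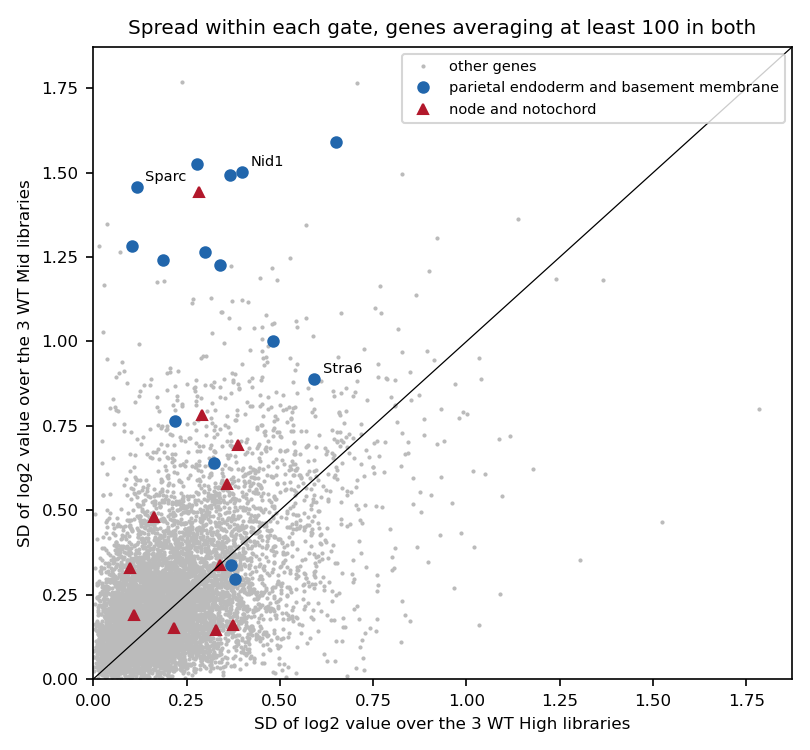
SD of log2 values over the 3 libraries in High (horizontal axis) and in Mid (vertical axis) for 9111 genes averaging at least 100 in both gates; marked points are basement membrane and node genes. Of 15 basement membrane and parietal endoderm genes 13 were wider in Mid, against 5222 of all genes (57.3%) and 7 of 11 node and notochord genes.

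The same gates of ΔHx embryos, which share no library with the WT ones, gave a second High and Mid pair. There 13.3% of tested genes were higher in High (1959) and 12.3% lower (1810). In both genotypes 1297 were higher, 73.1% of the WT calls and 66.2% of the ΔHx calls, and 1089 were lower, 59.9% and 60.2%. The 2 genes called with opposite signs were Hs3st1 (-2.20 in WT and 1.93 in ΔHx) and Pax6 (1.78 and -2.14), of which Pax6 had at most 3.64 in any WT High or Mid library. The medians of the axoneme lists were 2.58 in WT and 2.33 in ΔHx, those of the node list 2.56 and 2.58, and those of the 4 visceral endoderm lists -1.98 and -2.38.

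A test of the difference between the genotypes' High minus Mid values called 0.0136% of genes, namely 2. Slc6a2 (chr8:92960079-93001667, plus strand) had 2.40, 0.910 and 0 in WT High, against 482, 165 and 160 in WT Mid. In ΔHx it had 1.75, 1.81 and 0 in High, against 1.86, 0 and 1.14 in Mid (WT minus ΔHx -7.09, adjusted p = 0.0359). Nid1 had 339, 417 and 578 in ΔHx High, against 303, 496 and 512 in ΔHx Mid, where the gates overlapped (-3.99, adjusted p = 0.0422). At an unadjusted p under 0.05 there were 902 genes, 6.13% of those tested. Both calls ended in many of the alternatives. The basement membrane and parietal endoderm list had 17 members lower in WT, with a median of -2.70, and 6 lower in ΔHx, with a median of -0.77. The WT difference was the lower one in all 19 of its genes, and 1 of them, Nid1, was called. Mid 1 of WT was the highest WT Mid library in 18 of the 19. Without it Nid1 kept its call, with -3.14 and an adjusted p of 0.000791 (limma), while Slc6a2 lost its call (0.0658). The call of Nid1 ended when any single WT High library was left out (limma, adjusted p = 0.0634 to 0.125). It also ended when any single ΔHx High or Mid library was left out (0.0903 to 0.221).

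**Figure D5:**
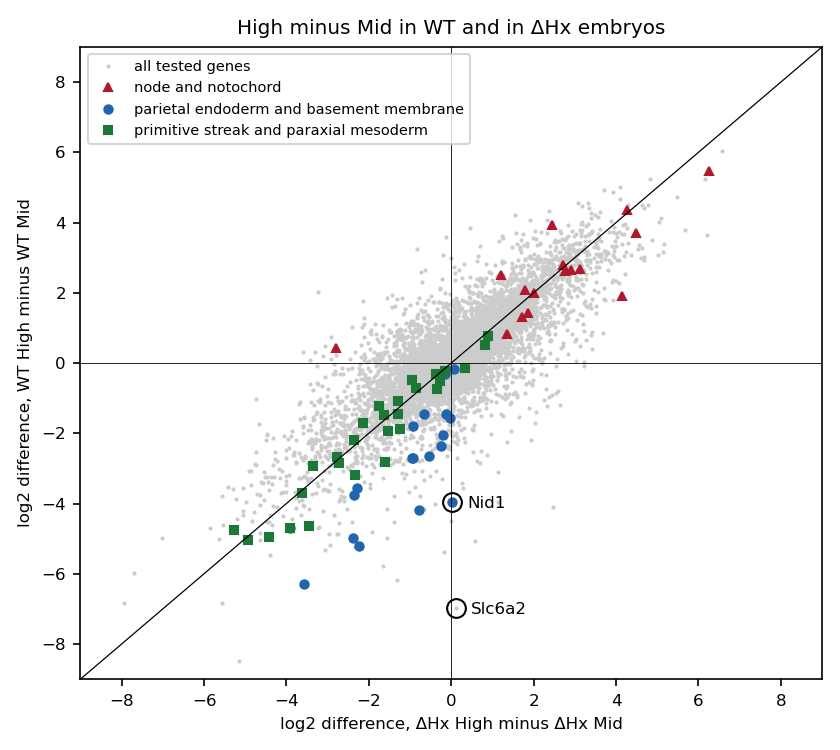
Log2 difference, High minus Mid, in WT (vertical axis) against that in ΔHx (horizontal axis) for all tested genes, with node, basement membrane and streak genes coloured and the 2 genes whose difference differed between genotypes, Slc6a2 and Nid1, circled. Node genes lay near the diagonal, and basement membrane genes lay below it.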

How the data were processed

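The authors deposited their values as signal, normalised counts in which each library's gene reads share 1 size factor. The submitters' processing notes list HTSeq 0.6.1, STAR 2.5.2a, DESeq, DESeq2 and mm10, and no annotation is given in the sources used here. HTSeq's 5 counter rows stayed out of all tests. In the WT High and WT Mid libraries 7.24% to 12.1% of what was counted had no feature, 0.495% to 0.686% was ambiguous and 37.7% to 39.1% was not unique. SMART-Seq2 libraries keep no strand, and reads of overlapping antisense pairs cannot be assigned to either gene. All 440964 values were whole multiples of 1 read within 1e-06 reads, and 1 read was worth 0.872 to 1.37 in these libraries. Replicate libraries were not copies of each other: chi-square per degree of freedom was 9.97 to 40.8 between High libraries and 28.7 to 105 between Mid libraries.

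All 18 libraries entered a fit of log2(value + 1) with limma 3.58.1 (R 4.3.3), with 6 group means and a variance trend, so each gene has 1 spread. Tests were two-sided, with Benjamini-Hochberg adjustment over all 14711 genes and calls at an adjusted p under 0.05. The genotype difference is an interaction in the same fit. The steps were tested on simulated data. Alternatives were pseudocounts, filters, scalings, a replicate block, other variance models, edgeR 4.0.16 and DESeq2 1.42.0 on the recovered reads, and leaving out each library. The adjusted p of an alternative is limma's unless another tool is named.

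Members and lists were chosen with earlier results of these data known, and lists are described by counts and medians only. Named genes were Foxa2, the 8 largest rises and falls among called genes whose higher gate averaged 20 or more and whose libraries did not overlap, up to 4 called members of each list in its main direction and up to 2 in the other. They also took in the 5 smallest interaction p-values and the 8 widest spreads in Mid. Some genes that this rule takes in are not reported here. Other genes were named after their values were seen. Ratios with 1 to 3 reads in a gate have exact 95% intervals, a floor of 3 reads per library stood in for a gate at 0 reads, and both cover counting error only. Positions are from the GENCODE annotation of mm10.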

Additional observations from a re-analysis of the deposited data

Results flagged for a closer look

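Slc6a2, the noradrenaline transporter, differed between the gates in WT and not in ΔHx, which a test of the difference itself called (WT minus ΔHx -7.09 on the log2 scale, limma, adjusted p = 0.0359). The gates did not overlap in WT, and all 6 ΔHx libraries were below 2. Its adjusted p was between 0.000137 and 0.277 over the alternatives.

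Nid1, a basement membrane linker, was the second such gene (-3.99, limma, adjusted p = 0.0422, 0.000109 to 0.639 over the alternatives). In WT every High library was below every Mid library, with Mid 1 far above the other two, and in ΔHx the gates overlapped. The next genes, Nrcam, F3 and Epas1, did not pass (limma, adjusted p = 0.133 each).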

How the results depend on the processing

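Of the calls between High and Mid that an alternative kept, 0 changed sign, and the signs of calls that ended were not compared. The count of lower genes was 982 with equal totals and 1090 in a model of the compared groups alone, which kept 2318 of the 3593 calls. A 2-fold limit left 284 higher and 213 lower genes by its construction. Leaving out 1 library at a time, ΔHx ones included, gave 1419 to 1849 higher and 1344 to 1948 lower genes. The genotype difference was called for 0 genes with a pseudocount of 0.5, with a filter at 50, in the compared groups alone and with the 2-fold limit. It was called for 1 gene without a filter, with the replicate block, with robust variances and with edgeR, for 4 with array weights and for 28 with DESeq2; leaving out 1 library gave 0 to 24, the most without WT Mid 2, and the cause was not tested. The labels do not say whether libraries of the same number came from the same sort, so replicate numbers were not treated as pairs. Same-numbered High and Mid libraries correlated in their deviations by 0.17, 0.097 and 0.29. Each High library correlated best with the Mid library of its own number, which is a hint from the data and not from the design; the block gave 1762 higher and 1799 lower genes. Among list counts 35 moved by over 1.5 times when a library was left out, against 493 that did not. Among calls of named genes 50 then ended and 1108 did not. Under the other alternatives, the 2-fold limit included, 108 list counts moved and 1124 did not. There 138 calls of named genes ended and 2554 did not. Depth limits genes with few reads, whose log2 differences shrink with a larger pseudocount.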

Other observations

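Cell cycle, metabolic and stress genes that the comparison of tissues does not cover were mostly not called. Of 24 mitosis genes 4 were higher in High and 0 lower; the count was 11 with quantile normalisation and 1 in the compared groups alone, without High 3 or without Mid 1. Cenpf, a kinetochore protein, had 4788, 4169 and 3775 in High, against 2828, 2834 and 2776 in Mid (log2 difference 0.59, limma, adjusted p = 0.00408). Of 15 G1 cyclins and inhibitors 2 were higher and 2 lower, which beside 12.1% and 12.4% of all tested genes is no result about the list. Ccnd2 had 2094, 2896 and 2555 in High, against 975, 1242 and 1870 in Mid, and Ccnd3 had 779, 1050 and 1127, against 1723, 1441 and 1731. These 2 D-type cyclins thus had opposite signs (0.92 and -0.74, limma, adjusted p = 0.000357 and 0.000517). Ccnd1, also a D-type cyclin, was not called with all libraries and differed by -0.48 without Mid 1 (limma, adjusted p = 0.0266).

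Of 21 cholesterol synthesis genes 1 was higher, and 5 without Mid 3. The list took 0.158%, 0.152% and 0.245% of reads in genes without Rn45s in High. In Mid it took 0.110%, 0.130% and 0.236%, and in Neg 0.119%, 0.131% and 0.248%. Library 3 was thus the highest of each gate, and the fit without Mid 3 still held High 3. Of 19 genes of the unfolded protein response 6 were lower, 0 with equal totals, 0 in the compared groups alone and 1 without Mid 1, which was the highest Mid library in 15 of them. Of 18 glycolysis and glucose entry genes 4 were lower, among them Hk2, a hexokinase, with 815, 921 and 917 in High, against 1184, 1315 and 1439 in Mid (-0.57). Of 7 primordial germ cell genes 1 was higher and 1 lower, 2 lower without High 2. Of 14 immediate early and heat shock genes 1 was lower, 0 without Mid 1. Of 10 housekeeping genes 1 was lower, Tbp, whose call ended without High 1, and Actb, the cytoplasmic actin, had 52954, 47100 and 51200 in High, against 47794, 51034 and 54517 in Mid. Of 5 sex-linked genes 0 were called.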
